A study of Mus musculus with 6 samples.

Results

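Collagens are the main structural proteins of the extracellular matrix, and their genes were followed here in cardiomyocytes (CMs) that overexpressed SRF. Every gene whose symbol is written as Col, a number, a and a number was taken, which gave 43 of the 23337 genes of the count table. Col4a3bp, which encodes a ceramide transfer protein, begins alike but was not taken. The 43 genes fall into 11 fibrillar collagens, 6 basement membrane (type IV) collagens and 26 other collagens. Membership followed the symbols and no measured value, although the family was chosen with earlier results of these data known.

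The CMs came from wild-type mice of mixed genetic background injected at P1 with AAV9-cTNT-SRF-2A-GFP (SRF-OE) or with the AAV9-cTNT-GFP control (GFP), at 5e8 vg per g, and were sorted by GFP at P14 after collagenase perfusion of the heart. The cTNT (cardiac troponin T) promoter restricts the transgene to CMs, and the low dose is a mosaic one, so that only part of the CMs of each heart carried the virus. Polyadenylated RNA was sequenced and reads were counted per gene. The labels list 3 SRF-OE and 3 GFP libraries, but under the name of SRF-OE replicate 1 the table gives gene lengths. Gene symbols stand under the header Chr. The columns headed as 2 SRF-OE libraries (replicates 2 and 3) and 3 GFP libraries were analysed under those names. Whether these headers are displaced too, so that the library labelled GFP1 is an SRF-OE one, was not tested. In that case groups and replicate numbers below would differ.

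Total counts ranged from 14137433 to 23159631 per library. Srf was at 360 and 748 CPM (counts scaled for library size) in SRF-OE 2 and 3 and at 67.2 and 85.02 CPM in GFP 2 and 3, but at 338 CPM in the library labelled GFP1. Calls are therefore given with the 5 libraries as labelled and with the 4 libraries left without it. The 12 CM marker genes summed to between 102129 and 167532 CPM, and Tnnt2, the troponin T gene of CMs, to between 6373 and 10816 CPM. Xist was at 147 and 88.8 CPM in SRF-OE 2 and GFP 2 and at 0.74 CPM or less in the other libraries, where Y-linked genes were detected, so animals of both sexes were present in both groups. No source says whether the libraries came from separate animals, and p-values measure the spread between these libraries.

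Collagen chains assemble in groups into a rope-like helix, which requires glycine at a fixed position of each Gly-X-Y triplet. Fibrillar collagens have a long unbroken stretch of such triplets and form the striated fibrils that give tissue its tensile strength, and in the heart they are made mainly by fibroblasts. Type IV collagens have many interruptions and form the sheet-like network of the basement membrane that surrounds each CM and each capillary. The other collagens include microfibril, transmembrane, anchoring and fibril-associated types.

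The coding sequences of the GRCm38 transcripts (GENCODE vM21) show this difference between the classes. The longest unbroken run of codons with a glycine codon at the first position of each triplet held 344 triplets in Col3a1 and 338 in Col1a1 and Col11a1, against 217 in Col27a1, 75 in Col7a1, 45 in Col4a6, 44 in Col13a1 and 40 in Col4a1. The first 45 bases of that run are printed for an abundant fibrillar gene and the most abundant type IV gene, with glycine codons in capitals. They are also printed for the 5 genes that edgeR called higher below without the library labelled GFP1 (0 with the 5 libraries).
Col1a1: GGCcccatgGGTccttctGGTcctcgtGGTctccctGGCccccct
Col4a1: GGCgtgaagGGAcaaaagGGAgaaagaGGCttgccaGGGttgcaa
Col11a1: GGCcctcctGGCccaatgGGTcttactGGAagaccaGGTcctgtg
Col27a1: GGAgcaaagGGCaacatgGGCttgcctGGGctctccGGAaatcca
Col4a6: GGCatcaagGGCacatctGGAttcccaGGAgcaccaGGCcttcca
Col7a1: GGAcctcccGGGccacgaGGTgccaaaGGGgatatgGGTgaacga
Col13a1: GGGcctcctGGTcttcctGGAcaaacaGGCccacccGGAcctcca
The lines share the glycine codons and differ in the codons between them, and the classes differ in how long the repeat goes on without a break.

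Collagen RNA in the sorted CMs was mostly type IV. On a scale per length (reads per kb of gene length, scaled for library size, RPKM), Col4a1 and Col4a2 together made up 57.2% and 63.9% of the summed collagen level in SRF-OE 2 and 3, and 68.1%, 66.5% and 69.3% in GFP 1, 2 and 3. The 6 type IV genes had 61.4% and 71.1% of it in SRF-OE and 73.5%, 75.4% and 78.8% in GFP. The 11 fibrillar genes had 27.5% and 20.1% in SRF-OE and 17.8%, 17.8% and 14.3% in GFP. The 26 other genes had 11.1% and 8.81% against 8.68%, 6.76% and 6.81%. The type IV share was thus lower, and the fibrillar and other shares higher, in both SRF-OE libraries than in every GFP library, but SRF-OE 3 lay close to the library labelled GFP1 in each class. No test of a share is given, since 0.1 is the smallest p that exact permutation of 2 against 3 libraries allows.

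**Figure D1:**
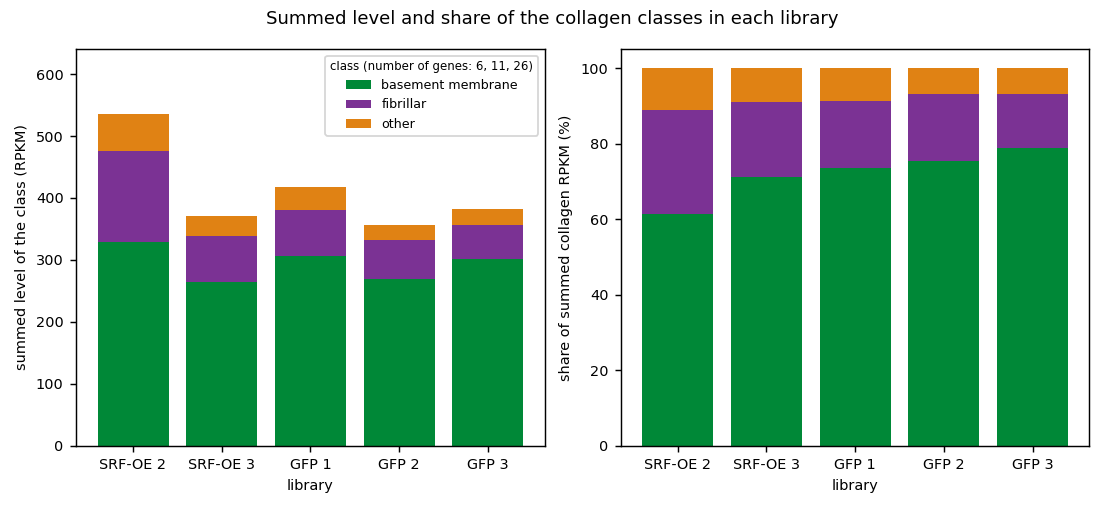
Stacked bars give, for each of the 5 libraries, the summed level (RPKM, left) and the share of the summed collagen RPKM (%, right) of the type IV, fibrillar and other classes. SRF-OE 2 has the highest sum, 535 RPKM against 356 to 417 RPKM in the other 4 libraries, and the lowest type IV share, 61.4%.

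Collagen genes took 0.353% of all counts in SRF-OE 2 (95% Wilson interval 0.350 to 0.356%) and 0.248% in SRF-OE 3 (0.246 to 0.250%). They took 0.263% (0.261 to 0.265%), 0.209% (0.207 to 0.211%) and 0.215% (0.213 to 0.218%) in GFP 1, 2 and 3. These intervals cover counting error alone, and PCR copies make reads less than independent. The library labelled GFP1 lay above SRF-OE 3, so the groups overlapped.

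Mean levels over the 5 libraries ran from 147 RPKM for Col4a1 to 0.025 RPKM for Col2a1. The 7 genes that did not pass edgeR's filter on low counts (Col2a1, Col24a1, Col6a4, Col6a5, Col9a1, Col9a3 and Col10a1) had 1 to 11 reads in each library. Col2a1, Col9a1, Col9a3 and Col10a1 are known as collagens of cartilage. The filter left 36 of the 43 genes for the test, 9 of 11 fibrillar, 6 of 6 type IV and 21 of 26 other genes, in both the 5 and the 4 libraries.

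**Figure D2:**
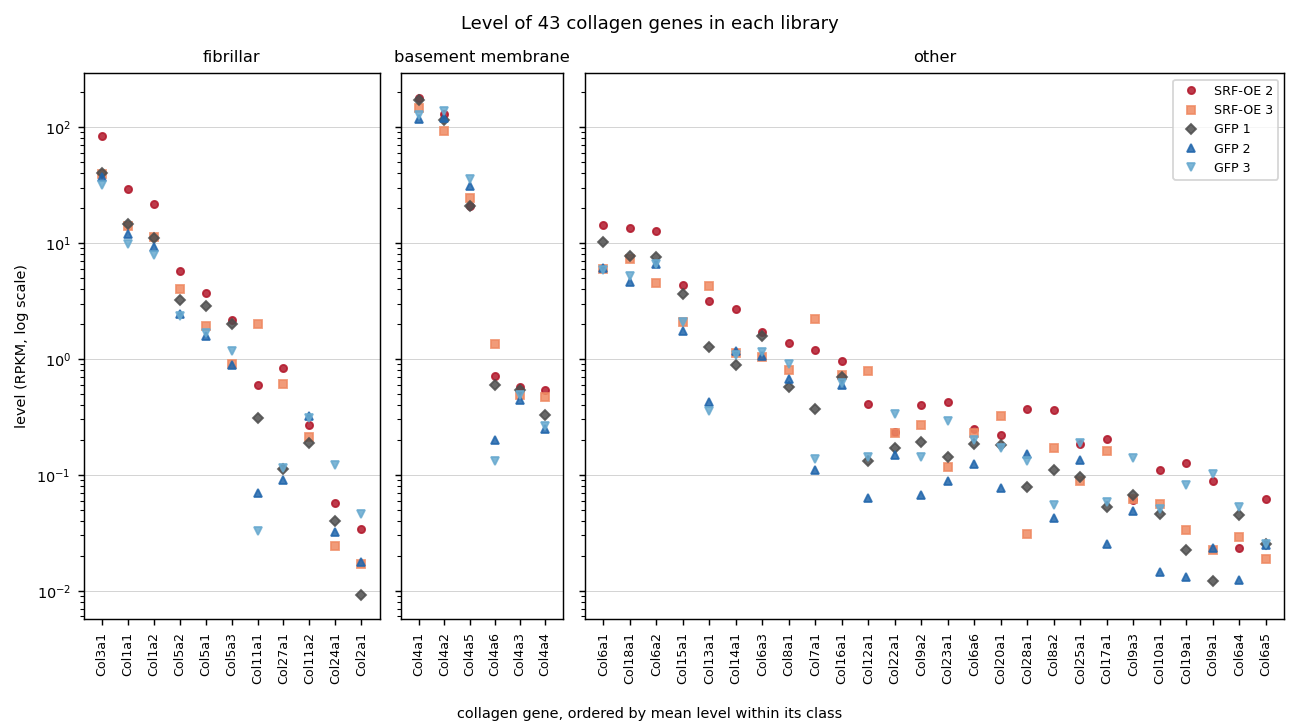
Each point is the level (RPKM, logarithmic axis) of 1 of the 43 collagen genes in 1 library, with genes ordered by mean level within the fibrillar, basement membrane and other classes. The 5 libraries lie close together for Col4a1, Col4a2 and Col4a5 and far apart for Col11a1, Col13a1, Col7a1 and Col4a6.

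With the 5 libraries as labelled, 0 of the 36 collagen genes were called higher and 0 lower in SRF-OE by edgeR's quasi-likelihood test at an adjusted p under 0.05, and of all 13754 genes tested 0.0% were called higher and 0.0% lower. The smallest adjusted p was 0.35. DESeq2 called 0 of the 4 collagen genes to which its independent filtering gave an adjusted p, beside 1.02% of 1079 genes called higher and 19.7% lower. Without that filtering it called 5 collagen genes higher and 0 lower, beside 0.0789% and 0.135% of 21558 genes. The 5 were Col7a1, Col11a1, Col12a1, Col13a1 and Col27a1. At an unadjusted p under 0.05, 14 collagen genes were higher and 0 lower, beside 6.35% and 7.59% of all genes tested. Both SRF-OE libraries lay above every GFP library in 15 of the 36 genes and below every GFP library in 0, beside 16.1% and 17.3% of all genes. By class, 4 of 9 fibrillar, 2 of 6 type IV and 9 of 21 other genes had both SRF-OE libraries above every GFP library. The median log2 fold change (SRF-OE over GFP) was 0.72 over the 36 genes and 0.03 over all genes tested. It was 0.81 for fibrillar, 0.17 for type IV and 0.69 for other collagens, and the difference between the classes was not tested. In the cell type marker lists described below, it was 0.76 for fibroblast, 1.38 for epicardial, 0.62 for smooth muscle and 0.38 for endothelial genes. It was 0.20 for leukocyte, 0.15 for Schwann cell, -0.07 for endocardial and -0.43 for CM genes. Positive medians were thus not particular to collagens.

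Without the library labelled GFP1, 5 of the 36 collagen genes were called higher and 0 lower, beside 1.98% and 0.97% of the 13397 genes tested. These were Col13a1, Col7a1, Col27a1, Col11a1 and Col4a6. Col5a2 (adjusted p = 0.054) and Col12a1 (adjusted p = 0.056, both from edgeR) lay just outside the cutoff. At an unadjusted p under 0.05, 16 collagen genes were higher and 1, Col4a5, was lower, beside 14.4% and 14.0% of all genes. Both SRF-OE libraries lay above both remaining GFP libraries in 22 of the 36 genes and below them in 2, Col4a5 and Col11a2, beside 30.8% and 30.2%. The median log2 fold change was 0.78 over the 36 genes and 0.04 over all genes, and 0.96, 0.30 and 0.77 in the fibrillar, type IV and other classes. In the marker lists it was 0.95 for fibroblast, 1.19 for epicardial, 1.00 for smooth muscle and 0.81 for endothelial genes. It was 0.82 for leukocyte, 0.14 for Schwann cell, -0.03 for endocardial and -0.55 for CM genes.

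**Figure D3:**
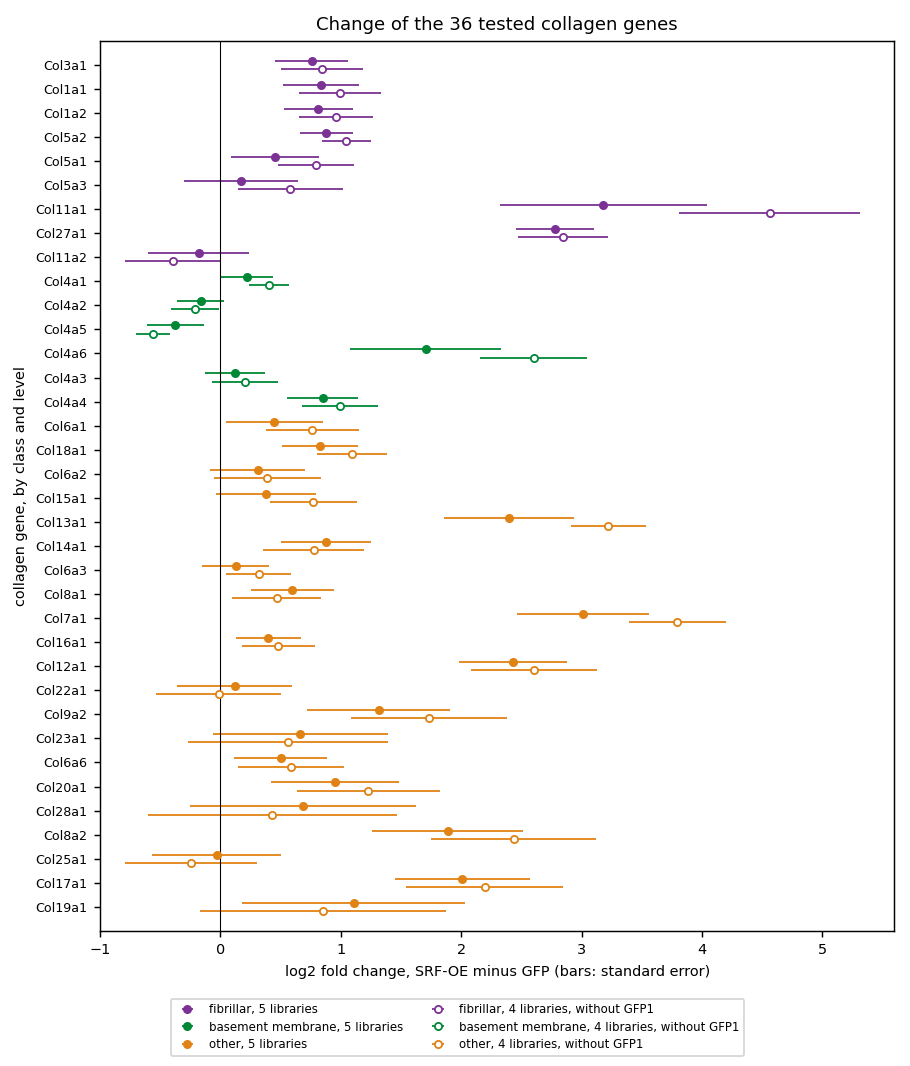
Points give the log2 fold change (SRF-OE minus GFP) of the 36 tested collagen genes with its standard error, filled for the 5 libraries and open for the 4 libraries without GFP1. Most genes lie to the right of 0. With the 5 libraries Col11a1, Col7a1, Col27a1, Col12a1 and Col13a1 lie farthest to the right. Next come Col17a1 (2.01), Col8a2 (1.89) and Col4a6 (1.71). Col17a1 and Col8a2 were at only 0.18 and 0.27 RPKM on average in SRF-OE.

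The 5 genes called without GFP1 were all at low levels, under 5 RPKM in every library. Col13a1 (chromosome 10 of GRCm38, 61838236 to 61979108) encodes a transmembrane collagen found at cell adhesion sites and the neuromuscular junction. It was at 3.13 and 4.23 RPKM in SRF-OE 2 and 3 and at 1.28, 0.43 and 0.35 RPKM in GFP 1, 2 and 3. The groups did not overlap, and the library labelled GFP1 lay between them. With the libraries as labelled, the mean was 3.68 ± 0.78 RPKM (SD, n = 2) in SRF-OE and 0.69 ± 0.51 RPKM (SD, n = 3) in GFP. For Col13a1, edgeR gave a log2 fold change of 2.40 (standard error, SE, 0.54, adjusted p = 0.35) with the 5 libraries and 3.22 (SE 0.31, adjusted p = 0.042) without GFP1.

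Col7a1 (chromosome 9, 108953586 to 108984875) encodes the collagen of anchoring fibrils, which fasten the epidermis to the dermis. It was at 1.19 and 2.19 RPKM in SRF-OE and at 0.37, 0.11 and 0.14 RPKM in GFP, from 189 and 461 reads against 72, 22 and 16. Both SRF-OE libraries were higher than all GFP libraries, and GFP1 was the highest of the latter. For Col7a1, edgeR gave a log2 fold change of 3.01 (SE 0.55, adjusted p = 0.35) with the 5 libraries and 3.80 (SE 0.40, adjusted p = 0.042) without GFP1.

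Col11a1 (chromosome 3, 114030540 to 114220718) encodes a chain of type XI collagen, which sits inside type II collagen fibrils of cartilage and sets their diameter. It was at 0.60 and 1.99 RPKM in SRF-OE and at 0.31, 0.07 and 0.03 RPKM in GFP. The reads behind these values were 75 and 331 against 47, 11 and 3, so the lowest value rests on 3 reads. SRF-OE 3 was the highest library, and GFP 2 and 3 were the lowest. For Col11a1, edgeR gave a log2 fold change of 3.18 (SE 0.86, adjusted p = 0.35) with the 5 libraries and 4.56 (SE 0.75, adjusted p = 0.048) without GFP1. Over the fits that left out one library it ranged from 2.06 to 4.56, the lowest without SRF-OE 3.

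Col27a1 (chromosome 4, 63214004 to 63334991) encodes a fibrillar collagen of developing cartilage and has the shorter triplet run given above. It was at 0.84 and 0.61 RPKM in SRF-OE and at 0.11, 0.09 and 0.11 RPKM in GFP. Here the library labelled GFP1 was at the level of the other GFP libraries, and SRF-OE 2 was above SRF-OE 3. For Col27a1, edgeR gave a log2 fold change of 2.78 (SE 0.32, adjusted p = 0.35) with the 5 libraries and 2.85 (SE 0.38, adjusted p = 0.047) without GFP1. Col12a1, a fibril-associated collagen of tendon and ligament, was at 0.41 and 0.78 RPKM in SRF-OE and at 0.13, 0.06 and 0.14 RPKM in GFP. The library labelled GFP1 again lay among the other GFP libraries. Col12a1 did not pass the cutoff in either edgeR fit, but DESeq2 without independent filtering called it higher with the 5 libraries.

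**Figure D4:**
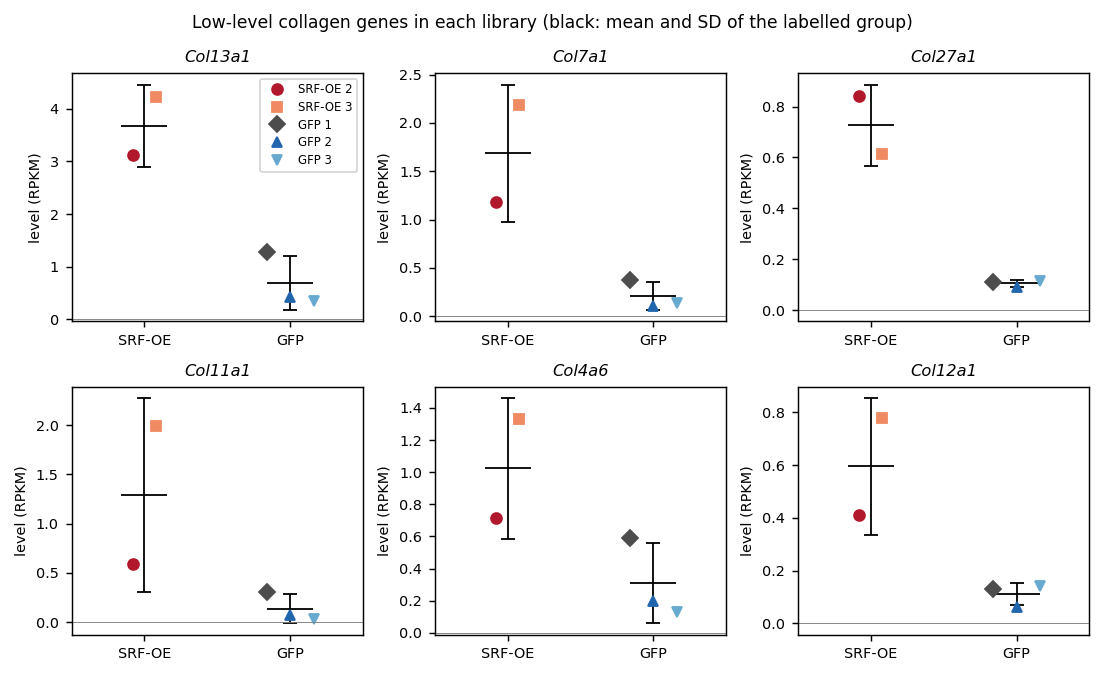
Points give the level (RPKM) of Col13a1, Col7a1, Col27a1, Col11a1, Col4a6 and Col12a1 in each library, and black bars give the mean and SD of each labelled group (2 SRF-OE, 3 GFP). GFP1 (diamond) lies above GFP 2 and GFP 3 for Col13a1, Col7a1, Col11a1 and Col4a6 but with them for Col27a1 and Col12a1.

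The library labelled GFP1 lay above both other GFP libraries in 22 of the 36 tested collagen genes, beside 40.5% of all genes tested. By class this held for 7 of 9 fibrillar, 4 of 6 type IV and 11 of 21 other genes.

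Among the type IV chains, Col4a1 and Col4a2 encode the network found in nearly all basement membranes. Col4a1 was at 178 and 145 RPKM in SRF-OE and at 170, 117 and 128 RPKM in GFP. Col4a2 was at 129 and 92.4 RPKM in SRF-OE and at 115, 120 and 137 RPKM in GFP. The groups overlapped for both, and neither passed the test (log2 fold change 0.22, SE 0.21, adjusted p = 0.63, and -0.16, SE 0.19, adjusted p = 0.70, by edgeR with the 5 libraries). Without GFP1 the values were 0.40 (SE 0.17, adjusted p = 0.18) and -0.21 (SE 0.20, adjusted p = 0.52). The ratio of their levels, however, was 1.38 and 1.56 in SRF-OE and 1.48 in GFP1, against 0.98 and 0.93 in GFP 2 and 3. In this ratio the library labelled GFP1 lay among the SRF-OE libraries. The genes lie head to head on chromosome 8 with annotated starts 21 bases apart (11312826 and 11312805), overlapping on opposite strands, and the strand setting of the counting is not given in the sources used here.

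The X-linked chains Col4a5 and Col4a6, which together form the basement membrane network of smooth muscle among other sites, had log2 fold changes of opposite sign. Col4a5 (141475385 to 141689234) was at 20.7 and 24.4 RPKM in SRF-OE and at 21.0, 31.0 and 35.7 RPKM in GFP. Col4a6 (141165403 to 141474076) was at 0.71 and 1.33 RPKM in SRF-OE and at 0.59, 0.20 and 0.13 RPKM in GFP. Col4a5 was thus lower and Col4a6 higher in SRF-OE than in GFP 2 and 3, with GFP1 on the SRF-OE side for Col4a5 and just under SRF-OE 2 for Col4a6. For Col4a6, edgeR gave a log2 fold change of 1.71 (SE 0.63, adjusted p = 0.36) with the 5 libraries and 2.60 (SE 0.45, adjusted p = 0.0498) without GFP1. For Col4a5 it was -0.37 (SE 0.23, adjusted p = 0.47) and -0.56 (SE 0.14, adjusted p = 0.075), which did not pass. Col4a5 exceeded Col4a6 by 29.1 and 18.3 times in SRF-OE and by 35.4, 155 and 274 times in GFP. SRF-OE 2 and GFP 2, the libraries with Xist, were not set apart from the others in this ratio.

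The starts of Col4a6 and Col4a5 lie 1309 bases apart on opposite strands, or 1343 bases by the RefSeq starts. The upstream part of both promoter windows (RefSeq, GRCm38.p6) is shown 5′ to 3′ on the strand of the gene. Matches to CCAAT on either strand are in capitals. The Col4a5 stretch is chrX:141475169-141475368 on the plus strand and the Col4a6 stretch is chrX:141474127-141474326 on the minus strand.
Col4a5: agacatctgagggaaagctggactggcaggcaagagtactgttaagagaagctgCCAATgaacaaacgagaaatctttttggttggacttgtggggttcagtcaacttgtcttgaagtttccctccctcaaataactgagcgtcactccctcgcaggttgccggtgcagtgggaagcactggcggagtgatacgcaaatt
Col4a6: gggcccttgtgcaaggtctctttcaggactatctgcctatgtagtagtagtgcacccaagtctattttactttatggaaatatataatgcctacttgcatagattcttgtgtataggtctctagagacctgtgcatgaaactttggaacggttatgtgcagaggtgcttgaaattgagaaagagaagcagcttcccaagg
The Col4a5 stretch holds 1 match to CCAAT and the Col4a6 stretch holds 0. GC content was 49.5% and 42.5%. A link of these sequences to the fold changes was not tested.

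Over the windows from 250 bases before to 50 bases after the start, 35 of the 43 collagen genes had an entry in the RefSeq table, with 38 windows. The CArG box, the sequence bound by SRF, was searched on both strands with exact letters. It was found in 1 of the 38 windows, at Col6a4, beside 1.63% of all 32851 windows. CCAAT was found in 13 of the 38 windows beside 37.4% of all windows, GGGCGG in 23 beside 35.7%, and TATAAA in 5 beside 13.6%, each on either strand. Col4a5 and Col4a6 both had GGGCGG, outside the stretches printed above. Such a match is a string in the sequence and not a measured binding site, and a CArG box outside the window was not searched.

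Col4a3 and Col4a4, which with Col4a5 make the network of the glomerular basement membrane, start 72 bases apart on chromosome 1 and were both at under 0.6 RPKM. Col4a4 was at 0.54 and 0.47 RPKM in SRF-OE and at 0.33, 0.25 and 0.26 RPKM in GFP, and both SRF-OE libraries were the highest. It did not pass the cutoff by edgeR, with a log2 fold change of 0.85 (SE 0.29, adjusted p = 0.35) with the 5 libraries and 0.99 (SE 0.31, adjusted p = 0.11) without GFP1. Col4a3 was at 0.57 and 0.49 RPKM in SRF-OE and at 0.54, 0.44 and 0.49 RPKM in GFP, which overlap. The ratio of Col4a3 to Col4a4 was 1.06 and 1.05 in SRF-OE and 1.63, 1.79 and 1.85 in GFP. Here the library labelled GFP1 lay with the other GFP libraries, in contrast to the ratios of the other type IV neighbours. Values of these ratios are plain quotients of levels and were not tested.

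**Figure D5:**
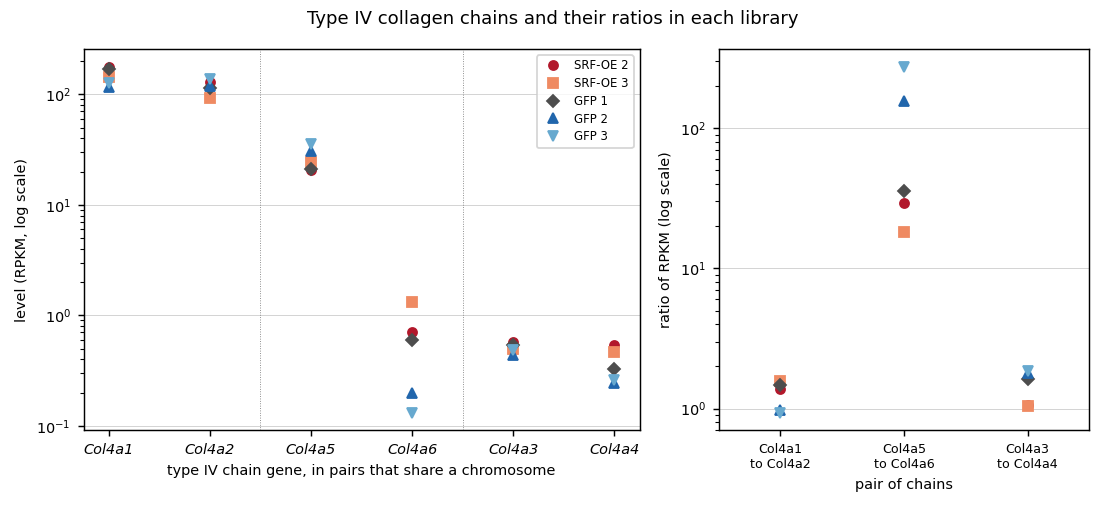
The left panel gives the level (RPKM, logarithmic axis) of the 6 type IV genes in each library, and the right panel the ratio of levels of each pair of neighbours (logarithmic axis). For Col4a5 to Col4a6 the ratio was 155 in GFP 2 and 274 in GFP 3 and under 36 in the other 3 libraries.

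The abundant fibrillar genes were all highest in SRF-OE 2. Col3a1, the collagen of fine reticular fibrils, was at 83.0 and 39.3 RPKM in SRF-OE and at 40.0, 37.0 and 31.5 RPKM in GFP. Col1a1, the major chain of type I collagen, was at 29.2 and 13.9 RPKM in SRF-OE and at 14.5, 12.0 and 9.75 RPKM in GFP. Its partner Col1a2 was at 21.7 and 11.3 RPKM in SRF-OE and at 11.1, 9.20 and 7.79 RPKM in GFP. SRF-OE 3 thus lay within or at the edge of the GFP range for all 3 genes. The ratio of Col1a1 to Col1a2 stayed between 1.23 and 1.35 in the 5 libraries. The log2 fold changes were 0.76 for Col3a1 (SE 0.30), 0.84 for Col1a1 (SE 0.32) and 0.81 for Col1a2 (SE 0.29), with adjusted p between 0.35 and 0.36 by edgeR. Without GFP1 they were 0.84, 0.99 and 0.96, with adjusted p of 0.17, 0.13 and 0.11. Without SRF-OE 2 they were 0.12, 0.21 and 0.27.

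Type V chains start and thin the fibrils of type I collagen. Col5a2 was at 5.76 and 4.04 RPKM in SRF-OE and at 3.22, 2.42 and 2.34 RPKM in GFP, and both SRF-OE libraries were above all GFP libraries. For Col5a2, edgeR gave a log2 fold change of 0.88 (SE 0.22, adjusted p = 0.35) with the 5 libraries and 1.05 (SE 0.21, adjusted p = 0.054) without GFP1. Col5a1 was at 3.69 and 1.92 RPKM against 2.88, 1.57 and 1.67 RPKM, and these overlap. For Col5a1, edgeR gave 0.45 on the log2 scale (SE 0.37, adjusted p = 0.57) with the 5 libraries, 0.79 (SE 0.32, adjusted p = 0.17) without GFP1 and -0.093 without SRF-OE 2. The remaining tested fibrillar genes, Col5a3 and Col11a2, had log2 fold changes of 0.17 and -0.18 with the 5 libraries and of 0.58 and -0.39 without GFP1, and neither passed.

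Of the abundant other collagens, Col6a1 and Col6a2 build the beaded microfibrils around muscle fibers, and Col15a1 and Col18a1 link basement membranes to the matrix beneath. Col6a1 was at 14.3 and 5.98 RPKM in SRF-OE and at 10.3, 6.08 and 5.89 RPKM in GFP. Col6a2 was at 12.7 and 4.52 RPKM against 7.63, 6.59 and 6.56 RPKM. In both, SRF-OE 2 was the highest library and SRF-OE 3 lay within or under the GFP range. Col15a1 was at 4.36 and 2.09 RPKM in SRF-OE and at 3.63, 1.73 and 2.06 RPKM in GFP. Col18a1 was at 13.4 and 7.31 RPKM in SRF-OE and at 7.77, 4.61 and 5.13 RPKM in GFP. None of the 4 genes passed the cutoff in either fit, and adjusted p ranged from 0.36 for Col18a1 to 0.72 for Col6a2 by edgeR with the 5 libraries. The log2 fold changes of Col6a1, Col6a2 and Col15a1 were 0.45, 0.31 and 0.38 with the 5 libraries, 0.76, 0.39 and 0.77 without GFP1, and -0.31, -0.62 and -0.24 without SRF-OE 2. That of Col18a1 was 0.83 with the 5 libraries, 1.09 without GFP1 and 0.32 without SRF-OE 2.

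SRF-OE 2 and SRF-OE 3 thus differed from each other. SRF-OE 2 was the higher in 29 of the 36 tested collagen genes, with a median log2 difference of CPM of 0.49, beside -0.0023 over all genes tested. The difference was 0.92 for fibrillar, 0.18 for type IV and 0.71 for other collagens. The other 7, Col13a1, Col7a1, Col11a1, Col4a6, Col12a1, Col4a5 and Col20a1, were higher in SRF-OE 3.

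Markers of other cell types also varied between the libraries. In bulk samples, fewer cells of a type and less RNA per cell cannot be told apart. Marker RNA made by CMs cannot be told from that of other cells either. The authors reported endothelial, smooth muscle and fibroblast markers among the genes raised by SRF overexpression. They read this as ectopic gene activation. The 15 fibroblast markers summed to 623 and 443 CPM in SRF-OE and to 452, 319 and 324 CPM in GFP, next to 805 and 411 CPM against 410, 347 and 302 CPM for the fibrillar collagens. Both sums were highest in SRF-OE 2 and higher in GFP1 than in GFP 2 and 3. Of the 14 fibroblast genes tested, 2 (Gsn and Ddr2) were called higher and 0 lower by edgeR without GFP1, beside 1.98% and 0.97% of all genes tested, and 0 were called with the 5 libraries. No fibroblast marker was at 0 in any library, and Pdgfra, a marker of the list, was at 2.57 to 4.97 CPM.

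The 15 endothelial markers summed to 1340 and 552 CPM in SRF-OE and to 1132, 551 and 517 CPM in GFP, and all 15 were higher in SRF-OE 2 than in SRF-OE 3. The 12 leukocyte markers summed to 47.2 and 16.9 CPM in SRF-OE and to 39.1, 18.1 and 15.9 CPM in GFP. The 7 epicardial markers summed to 29.6 and 12.4 CPM in SRF-OE and to 10.7, 11.2 and 10.0 CPM in GFP. These 3 sums were therefore high in SRF-OE 2, and in SRF-OE 3 were near those of GFP 2 and 3. In the library labelled GFP1 the endothelial and leukocyte sums were high as well, but not the epicardial sum. All 15 endothelial and 9 of 10 tested leukocyte markers were higher in GFP1 than in GFP 2 and 3. The 4 libraries thus lack the GFP library with the most of this RNA, and its part in their calls was not tested. The 12 smooth muscle and pericyte markers summed to 1271 and 1090 CPM in SRF-OE and to 1216, 1576 and 2051 CPM in GFP. Of the 12, Tagln and Cald1 were called higher and Acta2 lower without GFP1, beside 1.98% and 0.97% of all genes tested. Although the sum was lower in SRF-OE 3 than in GFP, 10 of the 12 had a positive log2 fold change in both fits, and the median over the 12 was 0.62 with the 5 libraries and 1.00 without GFP1. Of the 5 endocardial markers, 1 (Npr3) was called higher in that fit, and of the 4 Schwann cell markers tested 0 were called. Of these lists 0 genes were called with the 5 libraries. The CM markers summed to 114896 and 102129 CPM in SRF-OE and to 117049, 147352 and 167532 CPM in GFP, with 0 of 12 called in either fit. The part of these cell types in the collagen values was not tested.

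Collagen chains are hydroxylated and folded in the endoplasmic reticulum before export. Of 19 genes tested for these steps, 0 were called higher and 0 lower in either fit, and their median log2 fold change was 0.12 with both sets of libraries. Serpinh1, the collagen chaperone HSP47, was at 491 and 518 CPM in SRF-OE and at 535, 621 and 632 CPM in GFP. P4hb, a subunit of the prolyl hydroxylase, was at 255 and 281 CPM against 287, 304 and 289 CPM. Both were slightly lower in SRF-OE than in every GFP library, and neither passed the test (adjusted p = 0.46 and 0.61 by edgeR with the 5 libraries, and 0.19 and 0.49 without GFP1).

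Of the genes for collagen export, processing and crosslinking, 3 of 17 tested were called higher and 0 lower without GFP1, beside 1.98% and 0.97% of all genes tested, and 0 with the 5 libraries. Loxl2, a lysyl oxidase known to crosslink type IV collagen, was at 14.3 and 36.9 CPM in SRF-OE and at 9.21, 1.01 and 1.58 CPM in GFP. For Loxl2, edgeR gave a log2 fold change of 2.68 over the 5 libraries (adjusted p = 0.35) and of 4.36 (SE 0.56, adjusted p = 0.045) without GFP1. Sparc, a collagen-binding matricellular protein and the gene with the highest level of the list, was at 1225 and 1897 CPM in SRF-OE and at 1011, 389 and 313 CPM in GFP. For Sparc it was 1.45 over the 5 libraries (adjusted p = 0.35) and 2.16 (SE 0.26, adjusted p = 0.042) without GFP1. Loxl1, also a lysyl oxidase, was at 13.0 and 15.2 CPM against 9.31, 4.13 and 4.10 CPM, with a log2 fold change of 1.26 over the 5 libraries (adjusted p = 0.35) and of 1.78 (adjusted p = 0.042) without GFP1. All 3 genes were higher in SRF-OE 3 than in SRF-OE 2, and in all 3 the library labelled GFP1 lay between the groups, as in Col13a1, Col7a1, Col11a1 and Col4a6. Sec23a, a coat protein of the vesicles that carry procollagen out of the endoplasmic reticulum and the next in level per length, was at 73.6 and 71.8 CPM in SRF-OE and at 78.3, 86.3 and 83.8 CPM in GFP. It was lower in both SRF-OE libraries than in every GFP library and did not pass (adjusted p = 0.46 by edgeR with the 5 libraries and 0.26 without GFP1).

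Among collagen receptors, 1 of 7 tested genes was called higher and 0 lower without GFP1, beside 1.98% and 0.97% of all genes tested, and 0 of 8 with the 5 libraries. Ddr2, a receptor tyrosine kinase for fibrillar collagen that is also in the fibroblast list, was at 14.1 and 15.7 CPM in SRF-OE and at 11.1, 4.22 and 3.86 CPM in GFP. For Ddr2, edgeR gave 1.21 on the log2 scale (adjusted p = 0.36) with the 5 libraries and 1.88 (SE 0.21, adjusted p = 0.042) without GFP1. Itgb1, the shared beta chain of the collagen-binding integrins, was at 627 and 582 CPM in SRF-OE and at 638, 681 and 719 CPM in GFP. Ddr1, the related receptor, was at 58.0 and 60.9 CPM against 52.7, 75.5 and 71.6 CPM, and neither it nor Itgb1 passed.

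Of the genes for collagen breakdown and its inhibition, 1 of 12 tested was called higher and 0 lower without GFP1, beside 1.98% and 0.97% of all genes tested, and 0 with the 5 libraries. The called gene, Timp3, encodes an inhibitor of metalloproteinases that binds to the matrix, and was at 173 and 164 CPM in SRF-OE and at 105, 83.4 and 79.5 CPM in GFP. For Timp3, edgeR gave a log2 fold change of 0.92 over the 5 libraries (adjusted p = 0.35) and of 1.05 (SE 0.11, adjusted p = 0.042) without GFP1. Timp2, a related inhibitor, was at 220 and 317 CPM against 204, 134 and 122 CPM, with an adjusted p of 0.35 over the 5 libraries and of 0.0502, just outside the cutoff, without GFP1. Ctsl, a lysosomal protease, was at 164 and 151 CPM against 158, 171 and 174 CPM, and its groups overlapped. The collagenase Mmp14 was at 33.0 and 20.2 CPM against 22.4, 11.3 and 9.94 CPM and did not pass (adjusted p = 0.37 with the 5 libraries and 0.056 without GFP1).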

How the data were processed

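RNA-seq of sorted GFP+ CMs was deposited as raw counts per gene. The authors used, per the labels and the methods, STAR 2.5.3a for alignment to mm10 and featureCounts (Subread 1.5.2) for counting. CASAVA 1.8 is also listed. Libraries came from 10 ng of RNA with SMART-Seq v4, which amplifies the cDNA. Counting options for strand and shared reads are not given in the sources used here. Under the header of SRF-OE replicate 1 the values are gene lengths in bp, which were used only to compute RPKM. Of the columns with sample names, 0 were left unused.

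SRF-OE was compared with GFP over all genes with edgeR 4.0.16 under R 4.3.3 (filterByExpr, TMM, glmQLFit, glmQLFTest), with Benjamini-Hochberg adjustment and a cutoff of 0.05. The standard error is the log2 fold change divided by the square root of F. CPM and RPKM use the TMM factors, and log2 differences between 2 libraries used CPM plus 0.5. Sequences and positions were read with Python 3.11.15. The fits were also run on simulated data with 200 changed genes. Levels and dispersions of those data came from the 5 libraries as labelled, so they cannot judge the doubt about GFP1.

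The genes, classes and lists were chosen with earlier results of these data known. Named were the 5 most abundant genes of each class, every collagen past the cutoff in either fit, and of each pathway list the called genes and the 2 with the highest levels. Col4a4, Col5a3, Col8a2, Col11a2, Col12a1, Col17a1, Mmp14, Tnnt2, Pdgfra and the called marker genes were described after their values were seen. Replicate numbers come from the titles, matched to the headers as they stand, and mark no stated litter or day. Alternatives were DESeq2 1.42.0, other scalings and filters, the replicate block and leaving out each library. The knockout libraries were not analysed here.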

Additional observations from a re-analysis of the deposited data

How the results depend on the processing

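The count of collagen genes called higher, 0 with the 5 libraries, was 5 with DESeq2 without independent filtering, which was chosen after seeing the data, and 0 to 5 when one library was left out, the 5 coming without the library labelled GFP1. With the replicate block it was 9, Col12a1 among them, beside 4.23% of all genes tested. Deviations of same-numbered libraries correlated over genes at 0.37 for number 2 and at -0.06 for number 3, and at 0.20 for number 2 in the 4 libraries. With 2 such pairs and no stated pairing, they were taken to share only a number. DESeq2 with its filtering gave an adjusted p to only 4 collagen genes and called 0. The count of genes called lower stayed at 0 in every alternative on the 5 libraries. In the 4 libraries, with alternatives added after seeing the data, the 5 genes called higher became 16 without a filter, beside 7.75% of all genes, 2 with at least 10 counts in every library (0.453%), 3 with upper quartile scaling (0.657%), 11 with DESeq2 (6.31%) and 8 with the replicate block (4.08%). The 0 called lower became 1, Col4a5, without a filter and with DESeq2, beside 6.09% and 6.16%. Col13a1 and Col7a1 were called in each of these.

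Leaving out one library gave medians of 0.16 to 1.15 on the log2 scale for fibrillar, 0.038 to 0.30 for type IV and 0.16 to 1.23 for other collagens, the lowest of each without SRF-OE 2. It turned the sign of 5 of 18 named genes. Their log2 fold changes ranged from -0.093 to 0.84 for Col5a1, -0.31 to 0.94 for Col6a1, -0.62 to 0.86 for Col6a2, -0.24 to 0.81 for Col15a1 and -0.42 to 0.047 for Col4a2. The cause was not tested. A group left with 1 library is assumed to vary like the other. Low counts, such as the 3 reads of Col11a1 in GFP 3, limit the precision of its fold change.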
